A study of Mus musculus with 9 samples.

Results

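Wnt signalling genes were followed through 3 cell populations of the mouse olfactory epithelium, the tissue that replaces its sensory neurons throughout life. The 49 genes were chosen by symbol alone, out of 21909 gene symbols in the expression tables. They were all genes whose symbol starts with Wnt, Fzd, Sfrp or Dkk and a digit, with Lrp5, Lrp6, Lgr4, Lgr5, Lgr6, Axin1, Axin2, Tcf7, Tcf7l1, Tcf7l2, Lef1 and Ctnnb1. They comprise 19 ligands, 10 Frizzled receptors, 2 co-receptors, 3 receptors of R-spondin, 8 antagonists of the Sfrp and Dkk families, beta-catenin, 2 Axins and 4 Tcf/Lef factors. Mice were 4 weeks old, the source tissue was the main olfactory epithelium, and each population gave 1 library of poly-A RNA. Horizontal basal cells (HBC), a reserve stem cell layer, were sorted with a PE-labelled antibody to CD54, the product of Icam1. Neurog1-EGFP positive cells (GBC, for globose basal cells) and OMP-ires-EGFP positive cells (mOSN, mature olfactory sensory neurons) were sorted by their green fluorescent reporters. HBC RNA went through ScriptSeq and the rest through an Illumina mRNA kit, so that kit and population cannot be told apart in any comparison with HBC. The labels used here give no strain, sex or number of animals, and no difference below has a replicate check or a p-value.

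Wnt proteins are secreted, lipid-modified ligands that bind a Frizzled receptor together with Lrp5 or Lrp6. In the canonical branch this stops the Axin-containing complex from destroying beta-catenin, which then enters the nucleus and acts on genes through Tcf/Lef factors. Sfrp proteins capture ligands outside the cell, most Dkk proteins block the co-receptors, and R-spondins acting through Lgr receptors raise the number of Frizzled receptors on the surface. In the olfactory epithelium the pathway is known from work on basal stem cells and on the wiring of sensory axons.

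Each library was first checked against markers of the population it is named for. Values below are in the order HBC, GBC, mOSN unless a library is named. Icam1 had 136 FPKM (fragments scaled to transcript length and library size) in HBC, 0.0456 in GBC and 0.349 in mOSN. Neurog1 had 163 FPKM in GBC and under 0.1 in the other libraries. Omp had 71.6, 427 and 1487 FPKM. Kit, a marker of globose basal cells, had 5.30, 1.15 and 0.168 FPKM, so it was higher in HBC than in GBC. Of the 9 globose basal cell and precursor markers, 5, 8 and 4 reached 1 FPKM, with medians of 1.18, 53.0 and 0.454 FPKM. Cxcr4 was the highest of these in HBC, with 66.0 FPKM. In HBC all 10 horizontal basal cell markers reached 1 FPKM, led by Krt14 with 451 FPKM. Markers of other cells were also high in HBC. All 15 macrophage markers reached 1 FPKM there, with a summed level of 4336 FPKM against 7.03 in GBC and 5.26 in mOSN, and with Cd74 highest (1228 FPKM). The summed level of 10 sustentacular markers was 2010, 67.2 and 164 FPKM in HBC, GBC and mOSN, with Cbr2 highest in HBC. Bowman gland markers summed to 1503, 18.8 and 23.6 FPKM, led in HBC by 5430413K10Rik. Lymphocyte markers summed to 85.1, 2.097 and 0.269 FPKM, with 5 of 10 listed at 0 in mOSN and Cd4 highest in HBC. Fibroblast and smooth muscle markers summed to 168, 12.2 and 10.3 FPKM (Dcn highest), endothelial markers to 20.7, 2.51 and 1.79 (Pecam1), and neutrophil markers to 128, 11.3 and 8.29 (S100a9). In bulk RNA, fewer cells of a type and less RNA per cell cannot be told apart. The part of these other cells in the HBC levels below was not tested.

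More of the Wnt genes were detected at 1 FPKM in the HBC library than in the others. Of the 49 genes, 1 FPKM was reached by 31 in HBC, by 9 in GBC and by 8 in mOSN, whereas 52%, 52% and 52.7% of all gene symbols reached it. The 31 genes at 1 FPKM in at least 1 library were the same 31 that reached it in HBC. Of these, 22 reached it in HBC and not in GBC, and 23 in HBC and not in mOSN, so that most had their highest level in HBC by the filter itself. As a description only, the highest level was in HBC for 26, in GBC for 2 and in mOSN for 3, where 29.8%, 26.6% and 43.6% of all genes at 1 FPKM in some library had theirs. With 1 factor per gene to convert fragments to FPKM, as described under the conversion check below, these counts were 27, 3 and 1. The remaining 18 genes stayed under 1 FPKM in every library. They were 11 ligands, Fzd9, Fzd10, Lgr5, Sfrp5, Dkk1, Dkk2 and Dkk4, and the highest value among them was 0.885 FPKM (Wnt6 in HBC).

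**Figure D1:**
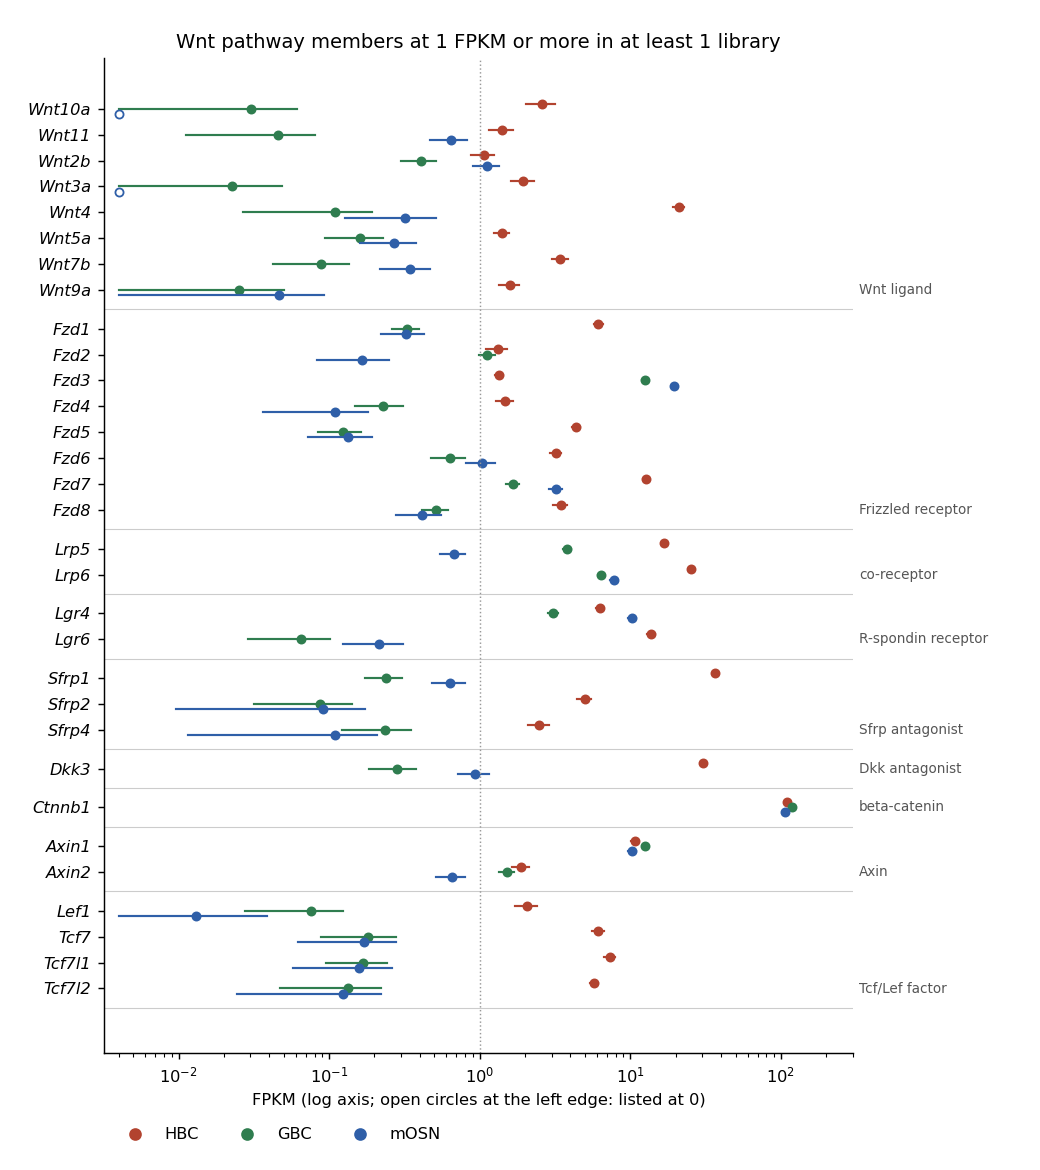
FPKM on a log axis for the 31 Wnt pathway genes at 1 FPKM or more in at least 1 library, grouped by role. Points are the libraries and open circles genes listed at 0. Bars are the deposited intervals, read as counting error only and cut at the left edge where they reach 0. HBC lies to the right for most ligands, Frizzled receptors, antagonists and Tcf/Lef factors, Fzd3 has the opposite order, and the deposited values of Ctnnb1 and Axin1 lie close together.

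The ligands were led by 1 gene. Wnt4 (chromosome 4, 136833550 to 136852694, mm9), a ligand needed for kidney tubule formation, had 21.1 FPKM in HBC (interval 19.3 to 22.9), 0.110 in GBC and 0.320 in mOSN. These values rested on 559, 7 and 11 implied fragments. Wnt4 alone made up 58.0% of the summed ligand level of 36.4 FPKM in HBC. Wnt7b followed with 3.42, 0.0884 and 0.343 FPKM, and Wnt10a, a ligand of skin and tooth development, with 2.59 and 0.0305 in HBC and GBC and listed at 0 in mOSN. The canonical ligand Wnt3a had 1.95 FPKM in HBC, 0.0227 in GBC and was listed at 0 in mOSN. Wnt9a had 1.58, 0.0252 and 0.0463 FPKM in the same order. Wnt5a, best known for signals that bypass beta-catenin, had 1.40, 0.161 and 0.268 FPKM. Wnt11, of the same kind, had 1.41, 0.0457 and 0.647 FPKM. In each of these genes the HBC interval lay above those of the other libraries. Wnt2b was the exception, with 1.06, 0.405 and 1.12 FPKM, the intervals of HBC and mOSN overlapping. It was also the ligand with the highest level in GBC and in mOSN, where all 19 ligands together summed to 1.63 and 3.04 FPKM.

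Some ligand genes are neighbours. The files place 4 ligand pairs next to each other with no other gene between them. Wnt3a and Wnt9a lie 16178 bases apart on chromosome 11, and both were over 1.5 FPKM in HBC and under 0.05 elsewhere. Wnt6 and Wnt10a lie 6699 bases apart on chromosome 1 and had 0.885 and 2.59 FPKM in HBC, 0.0203 and 0.0305 in GBC, and were listed at 0 in mOSN. The other pairs were low throughout. Wnt9b and Wnt3 (24353 bases apart) had no value over 0.143 FPKM, and Wnt10b and Wnt1 (11706 bases apart) none over 0.276 FPKM.

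The Frizzled receptors differed in kind between the libraries. Fzd3 (chromosome 14, 65811278 to 65881300), a receptor known for axon guidance and planar cell polarity, had 1.34 FPKM in HBC (interval 1.26 to 1.43), 12.5 in GBC (12.0 to 13.0) and 19.6 in mOSN (19.0 to 20.2). It was lowest in HBC and highest in mOSN, with no overlap of intervals. Its share of the summed Frizzled level was 3.87%, 72.6% and 78.4% in the same order. The HBC value of Fzd3 rested on 1025 implied fragments, and with 1 conversion factor per gene its share there was 11.8%, against 58.3% in GBC and 81.7% in mOSN.

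As deposited, the other Frizzled genes at 1 FPKM were highest in HBC. Fzd7 (chromosome 1, 59538991 to 59543799) had 12.7, 1.66 and 3.19 FPKM, and its close relative Fzd1 had 6.15, 0.328 and 0.323. The related pair Fzd5 and Fzd8 had 4.38 and 3.44 FPKM in HBC, 0.124 and 0.515 in GBC, and 0.133 and 0.416 in mOSN. Fzd6, the nearest relative of Fzd3, had 3.19, 0.634 and 1.04 FPKM, highest in HBC, where Fzd3 was lowest. Fzd4, which also serves as the receptor of Norrin, had 1.47, 0.228 and 0.109 FPKM. Fzd2 separated the EGFP-sorted libraries from each other, with 1.32 FPKM in HBC and 1.12 in GBC (overlapping intervals) and 0.166 in mOSN. With 1 conversion factor per gene Fzd2 was highest in GBC (0.9497 in HBC, 1.55 in GBC).

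The co-receptors had different orders over the libraries. Lrp6 (chromosome 6, 134396496 to 134516931) had 25.1, 6.40 and 7.73 FPKM. Lrp5 (chromosome 19, 3584825 to 3686564) had 16.8, 3.82 and 0.672 FPKM. Lrp5 was lowest in mOSN and Lrp6 in GBC. Lrp6 made up 59.9%, 62.6% and 92.0% of the sum of both as deposited. With 1 conversion factor per gene these shares were 69.3%, 37.1% and 85.6%, so that Lrp5 was then the higher of both in GBC.

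The leading R-spondin receptor was Lgr6 in HBC and Lgr4 in the other libraries. Lgr6 (chromosome 1, 136882930 to 137001853), a stem cell marker of skin, had 13.8, 0.0654 and 0.216 FPKM. Lgr4 (chromosome 2, 109757804 to 109854414) was present in all libraries, with 6.28, 3.08 and 10.3 FPKM as deposited. Lgr6 made up 67.4% of the summed Lgr level in HBC, and Lgr4 97.1% in mOSN. Lgr5, a stem cell marker of the gut, reached only 0.395, 0.303 and 0.0966 FPKM, on 80, 44 and 10 implied fragments.

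**Figure D2:**
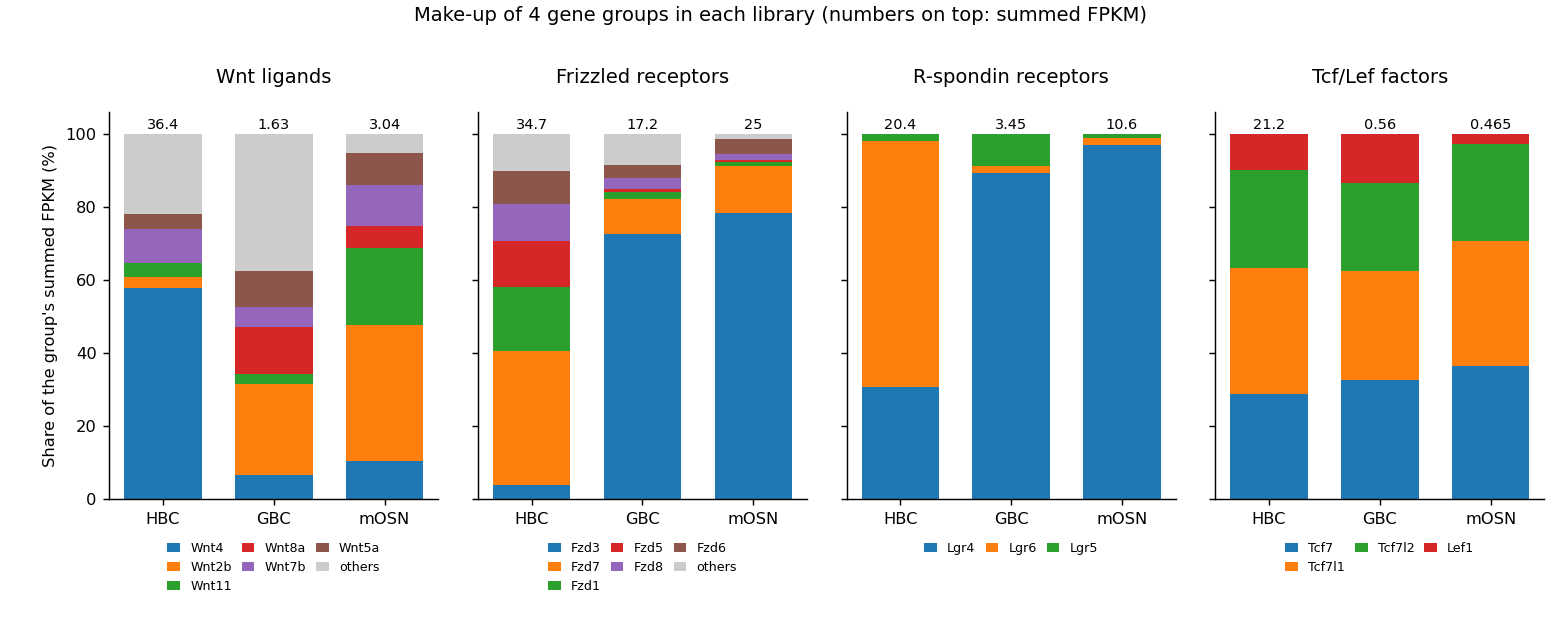
Share of each gene in the summed FPKM of its group (vertical axis, percent) by library, for ligands, Frizzled receptors, R-spondin receptors and Tcf/Lef factors, with the summed FPKM printed above each bar. Fzd3 and Lgr4 fill most of the bars of GBC and mOSN, Wnt4 and Lgr6 most of the HBC bars of their groups, and the Tcf/Lef sum is 21.2 FPKM in HBC against 0.56 in GBC and 0.465 in mOSN.

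The Sfrp and Dkk antagonists were near the floor outside HBC. Sfrp1 (chromosome 8, 24521974 to 24560104) had 36.5, 0.240 and 0.639 FPKM. Sfrp2 had 4.96, 0.0869 and 0.0917 FPKM, and Sfrp4 had 2.49, 0.236 and 0.110 FPKM. Dkk3 (chromosome 7, 119259533 to 119302571), a divergent member of its family, had 30.3, 0.282 and 0.931 FPKM. Sfrp1 and Dkk3 were thus the highest of these antagonists in HBC, above Wnt4, on a scale that takes transcript length into account. Dkk1, the classical blocker of Lrp6, was listed at 0 in HBC and had 0.237 FPKM in GBC on 15 implied fragments. Fibroblast genes were high in the same HBC library (Col1a1 39.9 FPKM, Dcn 62.1), and their part in the Sfrp levels was not tested.

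Beta-catenin and the Axins did not reach a 2-fold difference between HBC and GBC, and their order depended on the conversion to FPKM. Ctnnb1 (chromosome 9, 120842518 to 120869625), which also links cadherins to the cytoskeleton, had 109 FPKM in HBC (interval 107 to 111), 118 in GBC (116 to 121) and 107 in mOSN (105 to 109). Axin1 (chromosome 17, 26275631 to 26332756), the scaffold of the destruction complex, had 10.7, 12.6 and 10.3 FPKM in that order. As deposited, the intervals of HBC and mOSN overlapped for each of these genes and that of GBC lay above both. With 1 conversion factor per gene Ctnnb1 had 136, 114 and 83.9 FPKM, highest in HBC, and Axin1 had 8.59, 16.7 and 8.27 FPKM, a log2 ratio of 0.88 for GBC over HBC and of -0.93 for mOSN over GBC. With median-of-ratios scaling the log2 ratio for GBC over HBC was -0.50 for Ctnnb1 and -0.36 for Axin1, lower in GBC. Axin2, a feedback gene induced by canonical signalling in many tissues, had 1.88, 1.51 and 0.657 FPKM. The HBC and GBC intervals of Axin2 overlapped, and the mOSN interval lay below them. With 1 conversion factor per gene GBC was the higher of these (1.59 in HBC, 1.89 in GBC).

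The Tcf/Lef factors were all low in both EGFP-sorted libraries. Tcf7l1 (chromosome 6, 72576374 to 72738950), which acts mainly as a repressor in epithelial stem cells, had 7.30, 0.168 and 0.159 FPKM. Tcf7 (chromosome 11, 52066106 to 52095752) had 6.13, 0.182 and 0.170 FPKM, and Tcf7l2 (chromosome 19, 55816300 to 56008145) had 5.73, 0.134 and 0.123 FPKM. Lef1 had 2.06, 0.0753 and 0.0130 FPKM. None of the 4 exceeded 0.182 FPKM in GBC or mOSN, although Ctnnb1 stood above 100 FPKM in the same libraries. The GBC values of the 4 genes rested on 10 to 21 implied fragments each. Tcf7 and Lef1 are also factors of T cells, and the T cell genes Cd3e and Cd4 had 18.5 and 21.2 FPKM in HBC, 0.155 and 0.0773 in GBC and 0 in mOSN. Their part in the Tcf7 and Lef1 levels of HBC was not tested.

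Promoter sequence was looked at because the series concerns modified cytosines, which lie mostly in CG dinucleotides. RefSeq promoter windows of 300 bases (250 before and 50 after a start, build GRCm38.p6, which is not the build of the expression tables) were matched by symbol for 33 of the 49 genes. Shown are genes with 1 window each, 3 that were highest in HBC (Wnt4, Lgr6 and Tcf7l1) and Lgr4, which was present in all libraries and was highest in mOSN as deposited but in HBC with 1 conversion factor per gene (8.32, 4.35 and 6.99 FPKM), with every CG in capitals, read on the strand of the gene.
Wnt4 (chr4:137277385-137277684, + strand): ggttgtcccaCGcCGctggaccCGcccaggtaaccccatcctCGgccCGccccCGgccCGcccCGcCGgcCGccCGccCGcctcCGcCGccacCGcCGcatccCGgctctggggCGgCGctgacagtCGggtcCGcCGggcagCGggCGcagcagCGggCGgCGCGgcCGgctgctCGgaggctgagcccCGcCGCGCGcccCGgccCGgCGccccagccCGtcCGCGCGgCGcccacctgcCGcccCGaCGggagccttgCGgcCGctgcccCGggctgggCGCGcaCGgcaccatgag
Lgr6 (chr1:135105227-135105526, - strand): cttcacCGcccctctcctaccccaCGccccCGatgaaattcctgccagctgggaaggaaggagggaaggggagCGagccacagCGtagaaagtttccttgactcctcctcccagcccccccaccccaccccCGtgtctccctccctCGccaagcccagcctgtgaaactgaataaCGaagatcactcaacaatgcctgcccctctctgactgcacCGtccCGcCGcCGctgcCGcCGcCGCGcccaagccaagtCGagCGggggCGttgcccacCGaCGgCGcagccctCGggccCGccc
Tcf7l1 (chr6:72788996-72789295, - strand): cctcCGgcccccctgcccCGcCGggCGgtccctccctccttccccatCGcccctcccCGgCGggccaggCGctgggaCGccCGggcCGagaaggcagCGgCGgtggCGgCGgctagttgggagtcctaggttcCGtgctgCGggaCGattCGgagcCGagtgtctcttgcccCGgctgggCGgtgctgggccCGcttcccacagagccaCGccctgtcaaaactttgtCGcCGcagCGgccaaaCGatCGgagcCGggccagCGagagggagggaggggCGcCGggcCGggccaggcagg
Lgr4 (chr2:109917397-109917696, + strand): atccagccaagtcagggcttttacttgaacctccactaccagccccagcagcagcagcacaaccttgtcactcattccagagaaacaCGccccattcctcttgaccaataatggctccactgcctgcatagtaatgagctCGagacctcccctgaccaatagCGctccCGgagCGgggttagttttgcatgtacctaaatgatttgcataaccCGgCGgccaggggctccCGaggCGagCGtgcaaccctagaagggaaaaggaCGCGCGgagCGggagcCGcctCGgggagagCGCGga
The windows held 51 CG in Wnt4, 24 in Lgr6, 34 in Tcf7l1 and 18 in Lgr4. The median over 42 windows of the Wnt genes was 25, with a range of 4 to 58, and the median over all 32851 windows of the table was 7. At least 1 CG was present in 94.6% of all windows. The letters CTTTGAA, a core of sites bound by Tcf and Lef proteins, were also searched on both strands. They occurred in 1 of the 42 windows and in 5.14% of all windows. The match lay in Dkk1, at position -117 from the start, within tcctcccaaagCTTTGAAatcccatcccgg (match in capitals). A match describes letters only, and the windows cover a small part of the sequence around each gene. Other forms of the core, such as CTTTGAT, were not searched, so the count does not show which genes lack a Tcf/Lef site. Windows of the Wnt genes also held more CG than all windows, so nothing is read from the difference in shares.

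The step from HBC to GBC was compared on the scale log2((FPKM + 1)/(FPKM + 1)), which understates the difference of low genes. A gene was counted as higher where this log2 ratio reached 1 (2-fold) with at least 1 FPKM in the higher library. By that rule 24 of the 49 Wnt genes were higher in HBC and 1 in GBC. Over all gene symbols the shares were 14.7% and 21.7%, and over genes at 1 FPKM in either library 23.4% and 34.6%. The largest differences were those of Sfrp1 (-4.92 for GBC over HBC), Dkk3 (-4.61), Wnt4 (-4.31) and Lgr6 (-3.79). Fzd3 was the gene higher in GBC (2.52). Ctnnb1 (0.12), Axin1 (0.22), Axin2 (-0.20), Fzd2 (-0.12), Wnt2b (-0.55) and Lgr4 (-0.83) did not reach the 2-fold limit. The median log2 ratio was -0.89 over all 49 Wnt genes and 0.07 over all gene symbols. All 31 measured Wnt genes reached 1 FPKM in HBC and 9 of them in GBC, so 22 passed the level filter through HBC alone and a median over the measured genes is tilted to HBC.

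The step from GBC to mOSN was between libraries made with the same kit. Of the 49 Wnt genes 11 were at 1 FPKM in either library, so the other 38 could not be called. Lgr4 was higher in mOSN (log2 ratio 1.47) and Lrp5 in GBC (-1.53 for mOSN over GBC). No other of the 11 reached the limit, 1 in each direction, while 12.8% of all gene symbols were higher in mOSN and 5.92% in GBC (22.4% and 10.3% of genes at 1 FPKM in either library). With so few genes at that level, nothing is read from these counts. Fzd7 (0.66), Fzd3 (0.61), Wnt11 (0.66) and Wnt2b (0.60) stood somewhat higher in mOSN, and Fzd2 (-0.87) and Axin2 (-0.60) in GBC. With 1 conversion factor per gene Lgr4 fell short of the limit (0.58), and Fzd2 passed it (-1.21) along with Lrp5 (-2.20). Fzd7 then stood at -0.03, with 2.83 FPKM in GBC and 2.75 in mOSN. The median over all 49 Wnt genes was -0.01 and that over all gene symbols 0.

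Between mOSN and HBC, the ends of the series, 22 of the 49 Wnt genes were higher in HBC and 1 in mOSN. The shares over all gene symbols were 14.8% and 26%, and over genes at 1 FPKM in either library 23% and 40.4%. This comparison shares its libraries with the other steps and adds no independent evidence. Fzd3 had the log2 ratio 3.14 for mOSN over HBC. Lrp5 (-3.42) and Lgr6 (-3.60) were among the receptors furthest below HBC. Tcf7, Tcf7l1, Tcf7l2 and Lef1 stood at -2.61, -2.84, -2.58 and -1.59. Lgr4 stood at 0.63 as deposited, at -0.22 with 1 conversion factor per gene and at -0.09 with median-of-ratios scaling.

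**Figure D3:**
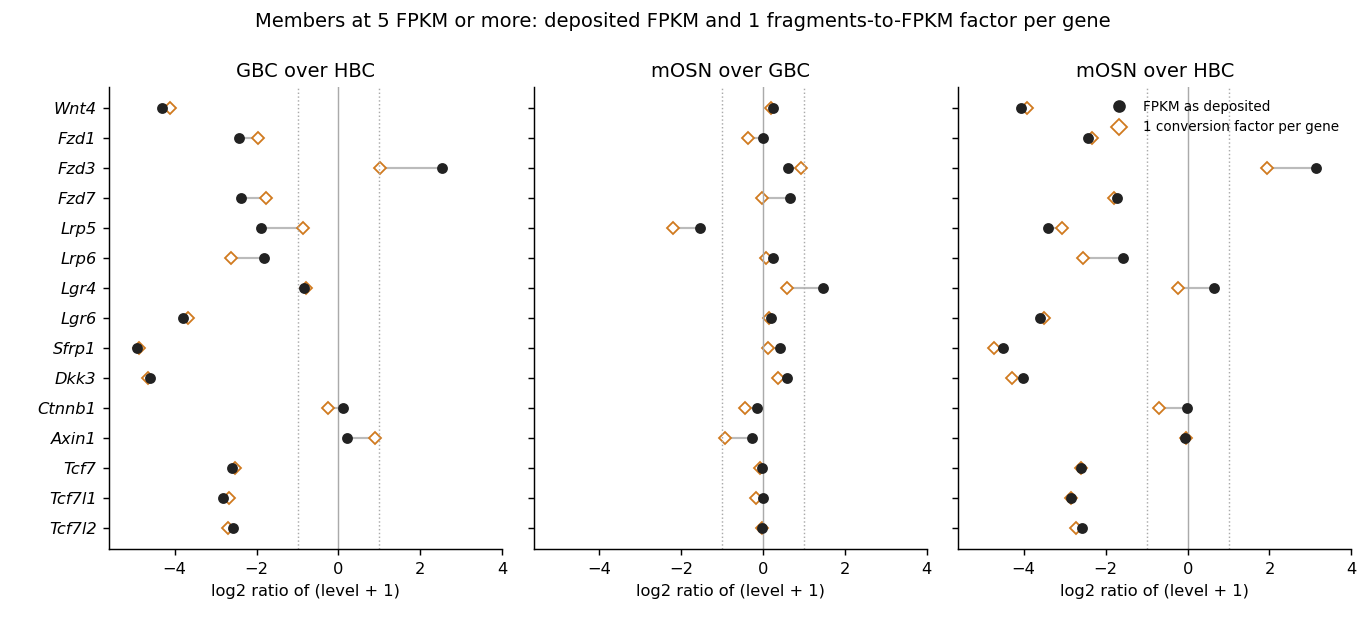
Log2 ratios of the 15 Wnt pathway genes at 5 FPKM or more in some library, for each comparison, from deposited FPKM (filled) and with 1 fragments-to-FPKM factor per gene (open). Dotted lines mark a 2-fold difference. Wnt4, Lgr6, Sfrp1, Dkk3 and the Tcf factors keep their place, whereas Fzd3, Lrp5, Lrp6 and Lgr4 shift.

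The conversion check was made because the same number of fragments did not give the same FPKM in each library. Between GBC and HBC, over 10156 genes with 50 or more implied fragments in both, fragments per FPKM differed by a factor whose 95th percentile was 8.16 times its 5th. Between mOSN and GBC the corresponding value was 2.26. Using 1 factor per gene moved Fzd3 for GBC over HBC from 2.52 to 1.02 and Lrp5 from -1.89 to -0.87, under the limit. Lrp6 moved from -1.82 to -2.63. The counts were then 23 Wnt genes higher in HBC and 1 in GBC. The median gene at 1 FPKM was itself 0.46 higher in GBC than HBC, 0.24 higher in mOSN than GBC and 0.63 higher in mOSN than HBC. With median-of-ratios scaling of the libraries these medians were -0.11, 0.08 and -0.10, and 26 Wnt genes were higher in HBC than in GBC and 26 higher than in mOSN.

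The other genes of the pathway were a list of 107 genes in 6 role groups. Their median log2 ratio at 1 FPKM in either library was 0.23 for GBC over HBC, -0.12 for mOSN over GBC and 0.06 for mOSN over HBC, beside the medians of all genes given above. Between GBC and HBC 24 were higher in GBC and 24 in HBC, where 21.7% and 14.7% of all gene symbols were. The share higher in GBC was thus near that of all genes. The split was 32 to 21 with 1 conversion factor per gene, 24 to 34 with libraries brought to a common sum and 13 to 31 with median-of-ratios scaling. Between mOSN and GBC 1 was higher in mOSN and 15 in GBC (12.8% and 5.92% of all gene symbols). Between mOSN and HBC 20 were higher in mOSN and 30 in HBC (26% and 14.8% of all gene symbols), or 10 to 41 with median-of-ratios scaling and 18 to 47 with a common sum.

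Among 22 genes of ligand secretion and extracellular control, 7 were higher in HBC than GBC and 3 in GBC (14.7% and 21.7% of all gene symbols). Wls, which carries Wnt proteins to the cell surface, had 53.7, 3.32 and 3.77 FPKM. The glypican Gpc3 had 20.7, 0.252 and 0.127 FPKM. Ndp, which encodes the Fzd4 ligand Norrin, had the opposite order with 0.0772, 12.3 and 20.9 FPKM. The others higher in GBC than HBC were Dkkl1 (0.284, 12.8 and 1.21 FPKM) and Draxin, listed as 2610109H07Rik (0.0895, 6.04 and 0.197). Of 8 genes of receptor turnover and alternative receptors, 1 was higher in GBC (Ryk) and 1 in HBC (Lrp4), and 0 and 1 with 1 conversion factor per gene. Ryk, a Wnt receptor of axons, had 4.89, 11.1 and 16.5 FPKM as deposited and 6.93, 14.1 and 11.4 FPKM with 1 conversion factor, so its order between GBC and mOSN turned and its log2 ratio for mOSN over HBC went from 1.57 to 0.64. Lrp4 had 10.03, 0.608 and 0.192 FPKM, and the polarity receptor Ptk7 had 11.6, 6.55 and 0.287. Ptk7 also turned between HBC and GBC with 1 conversion factor (7.76 and 10.4 FPKM).

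For the groups acting inside the cell, the share higher in GBC as deposited lay near that of all genes at 1 FPKM in either library (34.6%). The share higher in HBC lay below that of all such genes (23.4%). Of 25 genes of the cytoplasmic signal and destruction complex, 7 were higher in GBC than HBC and 1 in HBC. Apc2, a relative of Apc found mainly in neurons, had 0.344, 7.68 and 9.63 FPKM, and Fam123a had 1.13, 11.3 and 8.38. Ccdc88c, a partner of Dishevelled, had 11.5, 5.92 and 0.230 FPKM, with HBC and GBC nearly level with 1 conversion factor (8.65 and 8.77). Of 22 nuclear partners of beta-catenin and Tcf, 9 were higher in GBC and 2 in HBC. Pygo1, a coactivator, had 2.82, 18.8 and 56.3 FPKM. Cby1, which binds beta-catenin and also works at the base of cilia, had 4.82, 68.6 and 37.8 FPKM, and the corepressor Tle4 had 7.18, 3.64 and 0.560. With median-of-ratios scaling fewer of the other pathway genes were higher in GBC and more in HBC, as given above.

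As deposited, none of the known target genes of the pathway was higher in GBC than HBC by the 2-fold rule. Nkd1 came nearest, with 0.615, 2.02 and 0.174 FPKM and no overlap of the HBC and GBC intervals. Its log2 ratio for GBC over HBC was 0.90 as deposited and 1.09 with 1 conversion factor per gene. Rnf43 (4.62, 4.03 and 5.16 FPKM) and Znrf3 (2.21, 1.44 and 2.80) did not reach the limit in any comparison. Of 20 such genes, 10 were higher in HBC than GBC and 0 in GBC (14.7% and 21.7% of all gene symbols). With 1 conversion factor per gene 9 were higher in HBC and 1 in GBC, beside 3739 and 4395 over all gene symbols. In the comparison with mOSN 12 were higher in HBC (14.8% of all gene symbols). The furthest apart were Fosl1 (34.7, 0.226 and 0.0512 FPKM), Plaur (32.6, 0.180 and 0.109) and Cd44 (28.1, 0.270 and 0.592). These also respond to other signals, Fosl1 being part of AP-1, Plaur the urokinase receptor and Cd44 an adhesion receptor that leukocytes carry too. Macrophage markers, high in the same library, moved with them, and their part was not tested. The target gene Sp5 was listed at 0 in every library. Of 15 planar cell polarity genes, 4 were higher in GBC than HBC and 3 in HBC, or 6 and 2 with 1 conversion factor per gene, beside the all-gene shares given above. Celsr3, a cadherin of axon guidance, had 0.550, 26.3 and 16.2 FPKM, Celsr1 had 9.06, 3.95 and 0.307 (log2 ratio for GBC over HBC -1.02 as deposited and -0.06 with 1 conversion factor), and Intu, needed for cilia, had 0.435, 3.64 and 8.19.

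**Figure D4:**
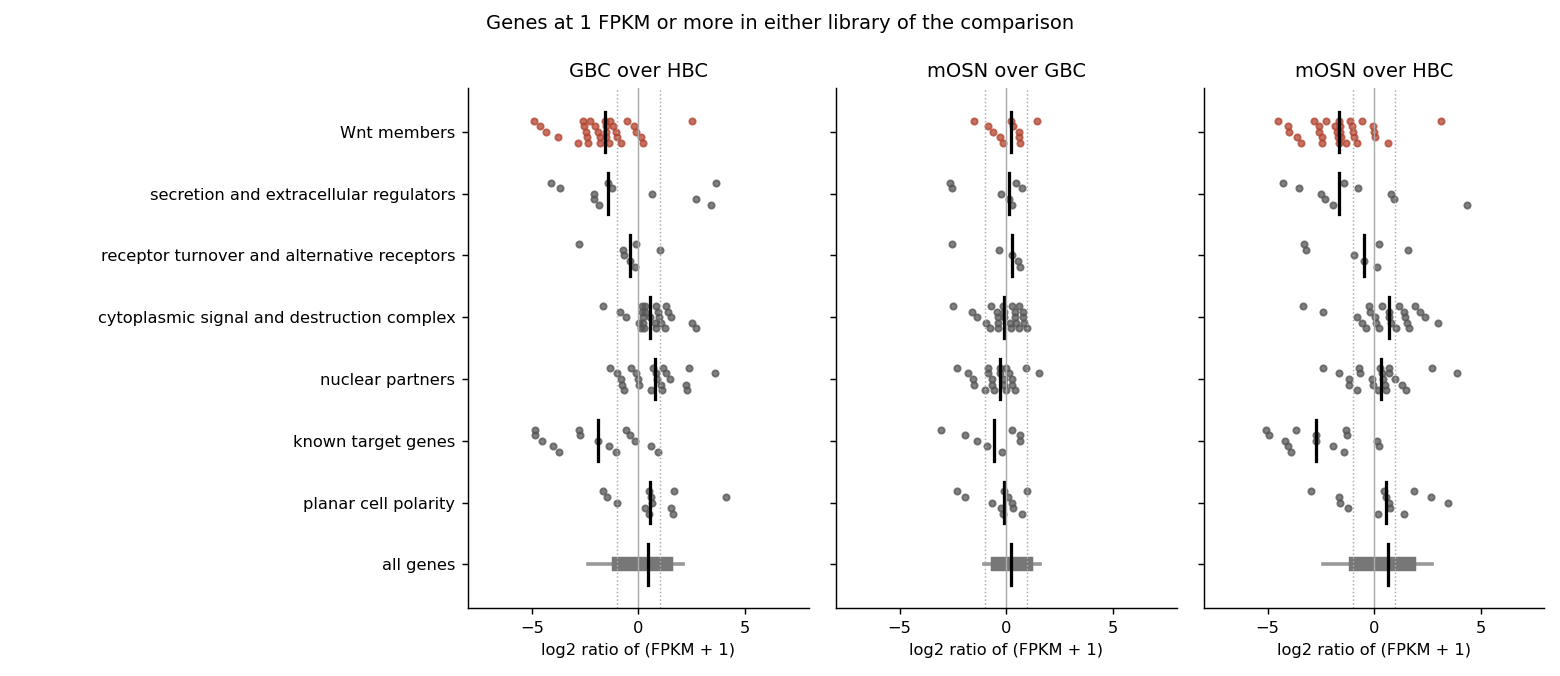
Log2 ratios of FPKM + 1 in each comparison for genes at 1 FPKM or more in either library: the Wnt genes (top row), 6 groups of other pathway genes, and all genes as the range from the 10th to the 90th percentile (thin) and the quartiles (thick). Black ticks are medians and dotted lines mark a 2-fold difference. The medians of Wnt genes and of target genes lie left of 0 in both comparisons with HBC. Most Wnt genes and many target genes pass the level filter through HBC alone, which tilts these medians to HBC.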

How the data were processed

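Poly-A RNA was sequenced from 1 library each of HBC, GBC and mOSN, grouped by sample title. Samples for 5-hydroxymethylcytosine (3) and 5-methylcytosine (3) were not analysed here. Per the file headers, the authors deposited FPKM per gene, its interval and a status flag, and the submitters' processing notes name Bowtie, TopHat, Cufflinks and build mm9. The sources used here name no annotation, version or option.

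Where a symbol had several rows their FPKM was summed. Each of the 49 genes had a single row per library, with status OK. Starts were raised by 1. A fragment count was read from each interval, its half-width being taken as 2 counting standard deviations. The implied library totals (HBC, GBC, mOSN) were 18123310, 18086991 and 16515790, and 77.6%, 69.1% and 69.0% of rows with up to 100 fragments came out within 0.03 of a whole number. Rows with more fragments were not checked in this way. That the intervals cover counting error only was assumed.

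Ratios used a pseudocount of 1 FPKM. No test or count model was run, each group being 1 library. The conversion check divided implied fragments by their library total and gave each gene 1 factor in all libraries. The members, the 6 pathway groups and the marker lists were chosen with earlier results of these data known. Genes named are the members, by level (5 FPKM, or 1 FPKM in small groups), and up to 3 genes per pathway group with the largest ratio at 5 FPKM. The sort genes and the highest marker in HBC of the lists described above are also named. Other named genes (Kit, Col1a1, Cd3e, Sp5, Nkd1, Rnf43, Znrf3 and members under 1 FPKM) were chosen after their values were seen. So were Dkkl1, 2610109H07Rik, Ccnd1, Myc, Jun, Ppard, Tnfrsf19, Sox9 and Bambi. Of 247 list symbols, 238 matched by symbol and 7 through RefSeq synonyms. Remaining marker lists were globose basal (9 genes, summed 95.5, 563 and 11.1 FPKM in HBC, GBC and mOSN), immature neuron (23.1, 1956 and 449), mature neuron (157, 1369 and 9866), ensheathing glia (34.1, 3.32 and 6.65), microvillous (8.96, 12.1 and 40.5) and respiratory and multiciliated (357, 95.3 and 171). Python 3.11.15, pandas 2.3.3 and numpy 2.4.6 were used.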

Additional observations from a re-analysis of the deposited data

How the results depend on the processing

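Low levels limit what can be read: 18 of the 49 Wnt genes stayed under 1 FPKM, and no spread between replicates exists. The implied fragments behind these genes differed, with 80 for Lgr5 in HBC and 3 for Wnt9b in mOSN. Of 147 counts recomputed under an alternative, 109 stayed within 1.5 times the value as reported, and 38 did not. Of 1029 log2 ratios of named genes, 505 stayed within the range given by the deposited intervals and 524 moved beyond it, and no ratio past the 2-fold limit changed sign. No alternative turned the direction of a Wnt gene call, and Fzd3 was higher in GBC and in mOSN than in HBC under each one. The cause of the shifts below was not tested beyond their construction. A stricter limit calls fewer genes, and a level of 1 on the TPM scale is a smaller part of the library than 1 FPKM. No paired analysis was possible because each group is 1 library.

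The Wnt genes higher in HBC than GBC (24 as reported) were 11 with a pseudocount of 5 FPKM, 11 at a minimum of 5 FPKM and 12 at 4-fold. Those higher in HBC than mOSN (22) were 11, 11 and 11. Those higher in GBC than HBC (1) were 3 on the TPM scale. Between mOSN and GBC, the gene higher in mOSN (1) became 2 with a pseudocount of 0.1, 0 with 5, 0 at 4-fold, 2 on the TPM scale and 0 with 1 conversion factor per gene. The gene higher in GBC (1) became 3 with a pseudocount of 0.1, 0 with 5, 0 at a minimum of 5 FPKM, 0 at 4-fold, 4 on the TPM scale and 2 with 1 conversion factor per gene. On the TPM scale 20 Wnt genes reached the level of 1 in GBC and 18 in mOSN, against 9 and 8.

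Of the other pathway genes, those higher in GBC than HBC (24) were 15 with a pseudocount of 5, 10 at 4-fold and 13 with median-of-ratios scaling, and those higher in HBC (24) were 14 with a pseudocount of 5 and 12 at 4-fold. Those higher in mOSN than GBC (1) were 5 with a pseudocount of 0.1, 0 at 4-fold, 2 on the TPM scale and 0 with 1 conversion factor per gene. Those higher in GBC than mOSN (15) were 9 with a pseudocount of 5, 7 at 4-fold, 28 on the TPM scale and 25 with 1 conversion factor per gene. Those higher in mOSN than HBC (20) were 8 at 4-fold and 10 with median-of-ratios scaling, and those higher in HBC than mOSN (30) were 19 with a pseudocount of 5, 18 at 4-fold and 47 on the TPM scale.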
